A study of Homo sapiens with 9 samples.

Results

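VEGFA, ADM and STC1 encode secreted proteins that are often induced by low oxygen or stress. The group was chosen by symbol, and its members were selected on earlier results of these arrays, in which simvastatin moved them in opposite directions: VEGFA was higher and ADM and STC1 were lower than with the solvent DMSO. All 3 genes were found among 14884 genes with a name, each by 1 probeset: 17009093 for VEGFA, 16721905 for ADM and 17075553 for STC1.

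The samples were SMS-KCNR cells, an established human neuroblastoma line grown in serum-containing medium, measured on 9 single-channel Affymetrix whole-transcript arrays after 30 hours of treatment. There were 3 arrays with simvastatin (5 µM) plus mevalonate (2 mM), 3 with simvastatin alone (5 µM) and 3 with DMSO. Simvastatin inhibits the enzyme that makes mevalonate, so the combined treatment supplies the product downstream of the block. Only this line was used, and no label names a low-oxygen treatment. The samples are called independent, but nothing states that they were separate cultures, so p-values measure the spread between these samples, which may be partly technical.

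Cells answer low oxygen mainly through hypoxia-inducible factors (HIFs), pairs of an oxygen-regulated alpha subunit and ARNT. EGLN enzymes hydroxylate the alpha subunit when oxygen is present, which marks it for destruction through VHL. VEGFA is a growth factor for blood vessels that acts on the receptors FLT1 and KDR with the co-receptors NRP1 and NRP2. ADM encodes the precursor of adrenomedullin, a vasodilator peptide that is amidated by PAM and acts on CALCRL paired with RAMP2 or RAMP3. STC1 encodes stanniocalcin 1, a glycoprotein first known as a calcium-lowering hormone of fish. In humans it also inhibits the protease PAPPA, which cleaves the insulin-like growth factor binding proteins IGFBP4 and IGFBP5.

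The RefSeq promoter table (GRCh38.p14) matched 1 of the 3 genes, ADM. Its window of 300 bases, from 250 before to 50 after the annotated start, lies on the plus strand at chr11:10304823-10305122. It is shown because ADM is known as a HIF target, and capitals mark the core of the hypoxia response element, searched as ACGTG and GCGTG on both strands with overlapping matches counted apart.
ADM promoter: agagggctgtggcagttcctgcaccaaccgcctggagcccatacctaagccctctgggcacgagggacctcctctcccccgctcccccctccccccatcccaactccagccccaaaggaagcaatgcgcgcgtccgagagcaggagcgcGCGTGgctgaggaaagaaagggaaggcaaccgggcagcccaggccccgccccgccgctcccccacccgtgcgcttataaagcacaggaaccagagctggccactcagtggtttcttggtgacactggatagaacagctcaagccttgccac
The window held 1 core, a GCGTG on the plus strand whose first letter is base 150 of the window. Of 35116 promoter windows of this length, 17012 (48.4%) held at least 1 such core. No binding or promoter activity was measured here, so the match is a description of the letters. VEGFA and STC1 are not shown.

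All values below are log2 expression values as the authors deposited them, in which a difference of 1 is a 2-fold difference. A probeset's level depends on its probes, so levels of different genes are not compared. Each of the 3 genes lay above the median of all probesets (5.19) on every array. Within groups, the SD was 0.12 for VEGFA, 0.10 for ADM and 0.07 for STC1, against a median of 0.09 over all genes.

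VEGFA stood high with simvastatin alone and lower with the other treatments. Its values were 6.89, 6.97 and 6.76 with simvastatin plus mevalonate, 7.64, 7.37 and 7.70 with simvastatin, and 6.87, 6.93 and 6.92 with DMSO. Every simvastatin array lay above every array of the other groups, and simvastatin replicate 2 was the closest to them. The combined treatment and DMSO overlapped.

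ADM had the opposite profile, with its lowest values under simvastatin alone. It read 7.39, 7.48 and 7.36 with simvastatin plus mevalonate, 6.98, 6.73 and 6.77 with simvastatin, and 7.44, 7.38 and 7.57 with DMSO. Every simvastatin array lay below the rest, and the combined treatment again overlapped with DMSO.

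STC1 separated all 3 groups. It read 7.42, 7.42 and 7.37 with simvastatin plus mevalonate, 6.21, 6.43 and 6.35 with simvastatin, and 7.94, 7.97 and 7.94 with DMSO. No groups overlapped, and the arrays with mevalonate lay between those of the other groups. The values of replicates 1 and 2 of the combined treatment were identical to the decimals deposited. Such ties were common, since this pair of arrays shared 1134 of 14884 values.

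**Figure D1:**
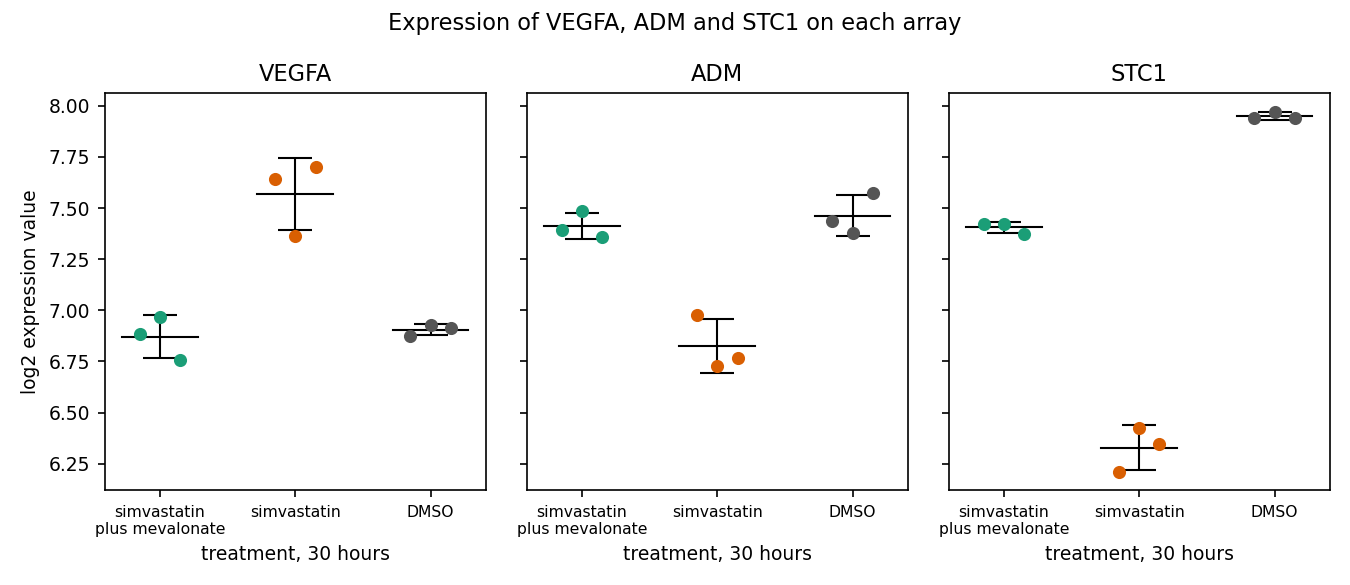
Log2 expression values of VEGFA, ADM and STC1 by treatment. Each point is an array, horizontal lines are group means and bars are SDs (n = 3). VEGFA is highest and ADM and STC1 are lowest with simvastatin alone, and STC1 with simvastatin plus mevalonate (7.37 to 7.42) lies below DMSO (7.94 to 7.97).

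The contrast of simvastatin with DMSO chose the genes, so it is given as a description with no test. VEGFA averaged 7.57 ± 0.18 with simvastatin and 6.91 ± 0.03 with DMSO (SD, n = 3 each), a log2 difference of 0.66 ± 0.09 (SE) or 1.58-fold. ADM averaged 6.82 ± 0.13 with simvastatin and 7.46 ± 0.10 with DMSO, a difference of -0.64 ± 0.08, or 1.56-fold lower. The largest of these differences was that of STC1, at 6.33 ± 0.11 with simvastatin and 7.95 ± 0.02 with DMSO, which is -1.62 ± 0.06 or 3.08-fold lower. Over all genes, 13.4% differed in this contrast (limma, adjusted p under 0.05), 5.98% higher and 7.38% lower with simvastatin. Groups that did not overlap were found for 28.6% of genes, and for all 3 genes here. By size, 88 genes were at least as far above DMSO as VEGFA, itself included, 145 at least as far below as ADM and 3 at least as far below as STC1.

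The combined treatment was set against simvastatin alone to see how the values changed when mevalonate was added. No sample had mevalonate alone. A reversal of the drug's difference therefore cannot be told apart from a separate effect of mevalonate. All 3 genes moved back toward DMSO. VEGFA fell to 6.87 ± 0.10 with the combined treatment, against 7.57 ± 0.18 with simvastatin (SD, n = 3 each), a log2 change of -0.70 ± 0.09 or 1.62-fold lower (limma, adjusted p = 0.00162). ADM rose to 7.41 ± 0.06 with the combined treatment, against 6.82 ± 0.13 with simvastatin, by 0.59 ± 0.08 on the log2 scale (adjusted p = 0.00201). STC1 rose to 7.40 ± 0.03 with the combined treatment, against 6.33 ± 0.11 with simvastatin, by 1.08 ± 0.06 or 2.11-fold (adjusted p = 1.97e-05).

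In this comparison 11.0% of all genes changed, 5.31% upward and 5.72% downward, and 27.3% had groups that did not overlap. The simvastatin arrays also entered the contrast on which the genes were chosen, so the calls of all 3 genes are not independent of the choice. The calls were kept under every alternative, with adjusted p up to 0.0122 for VEGFA (only these groups in the fit), 0.0108 for ADM (without simvastatin plus mevalonate replicate 2) and 0.000801 for STC1 (only these groups in the fit).

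Finally, simvastatin plus mevalonate was compared with DMSO, to see what remained of the drug's difference when mevalonate was present. VEGFA differed by -0.04 ± 0.09 on the log2 scale (95% interval -0.24 to 0.17, adjusted p = 0.917 with limma). ADM differed by -0.05 ± 0.08 (95% interval -0.23 to 0.13, adjusted p = 0.851 with limma). For both genes the difference was smaller than the spread between replicates, and the intervals still allow a ratio to DMSO of 0.846 to 1.12 for VEGFA and of 0.852 to 1.09 for ADM.

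STC1 was different, at 7.40 ± 0.03 with the combined treatment and 7.95 ± 0.02 with DMSO (SD, n = 3 each). It was 1.46-fold lower with simvastatin plus mevalonate (log2 change -0.55 ± 0.06 SE, 95% interval -0.68 to -0.42, adjusted p = 0.0183 with limma). In this comparison 11 of 14884 genes (0.0739%) passed the threshold, 5 higher (0.0336%) and 6 lower (0.0403%), and STC1 was among the lower ones. At an unadjusted p under 0.05 there were 1635 genes, so few calls do not mean few differences. The DMSO arrays also entered the contrast on which the genes were chosen, so these values, p-values and intervals of all 3 genes are not independent of the choice. Groups that did not overlap were found for 16.5% of genes, and for 1 of the 3 genes, STC1. The size of the STC1 difference held under every alternative (-0.56 to -0.53). Its call was lost without any single array of the combined treatment or DMSO (adjusted p from 0.0813 to 0.128), with only these groups in the fit (0.0723) and with the replicate number as a block (0.0904).

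**Figure D2:**
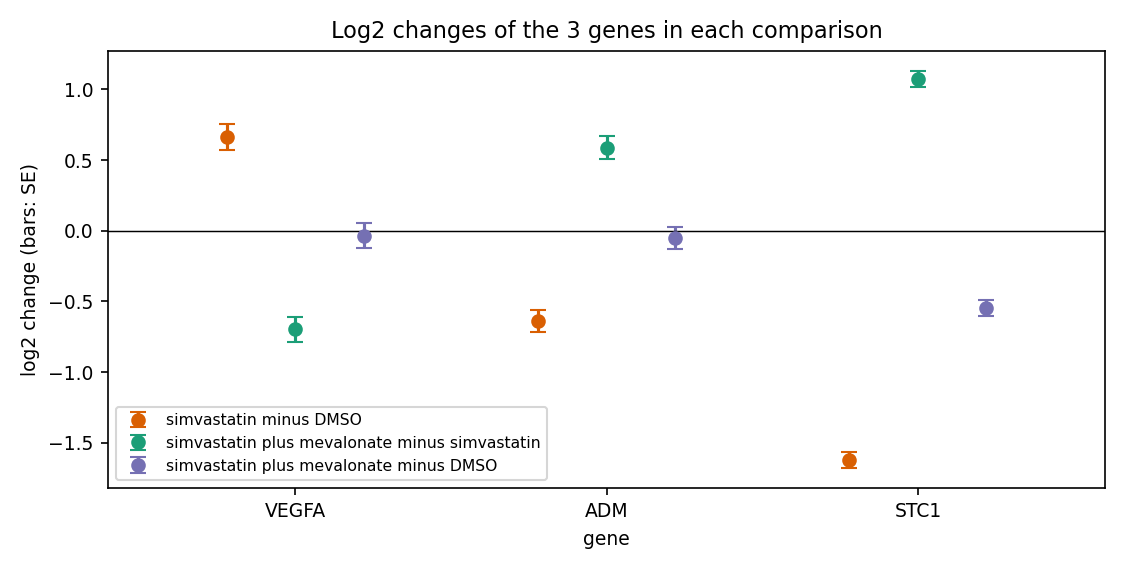
Log2 changes (bars are limma's SE) of VEGFA, ADM and STC1 in the 3 comparisons, with 3 arrays per group. The difference between simvastatin plus mevalonate and DMSO is near 0 for VEGFA (-0.04) and ADM (-0.05) and -0.55 for STC1. The comparisons share arrays.

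Arrays of the same group correlated with each other across all genes at r of at least 0.994. The array averages of 7 measured markers of noradrenergic neuroblastoma were 10.1 with simvastatin plus mevalonate, 9.69 to 9.70 with simvastatin and 10.1 to 10.2 with DMSO, above the median of all probesets (5.19). Since a level depends on the probes, this places the markers on the scale of these arrays and tests no cell type against another. The 5 endothelial markers averaged 4.59 to 4.92 over all arrays, the 3 Schwann cell markers 5.19 to 5.43 and the 3 blood cell markers 5.53 to 5.94. The 2 measured fibroblast markers, LUM and DCN, moved in the order of STC1, with array averages of 6.82 to 6.86 with simvastatin plus mevalonate, 6.10 to 6.30 with simvastatin and 7.18 to 7.35 with DMSO. Both fell with simvastatin (-1.14 ± 0.07 and -0.98 ± 0.06, limma, adjusted p = 3.19e-05 and 2.96e-05). Their part in the STC1 result was not tested. Of the blood cell markers CD68 rose (0.48 ± 0.09), and no endothelial or Schwann cell marker passed the test. The 5 called neuroblastoma markers fell with simvastatin, DBH most (-1.21 ± 0.04). In bulk samples fewer cells of a type and less RNA per cell cannot be told apart.

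Among relatives of VEGFA, its co-receptor gene NRP1 changed in the direction opposite to VEGFA. NRP1 read 6.35, 6.29 and 6.19 with simvastatin and 6.67, 6.76 and 6.85 with DMSO, with no overlap. It fell by 0.48 ± 0.06 on the log2 scale (SE; limma, adjusted p = 0.00131). With mevalonate it read 6.81, 6.87 and 6.76, a rise of 0.54 ± 0.06 over simvastatin alone (adjusted p = 0.000887).

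FLT1, a receptor for VEGFA that also binds VEGFB and PGF, was called lower with simvastatin (-0.26 ± 0.07, limma, adjusted p = 0.0456), a call lost without any single array. Its means of 4.87 with simvastatin and 5.13 with DMSO lie below the median of all probesets. In total 2 of 5 VEGF receptor genes fell with simvastatin, beside 7.38% of all genes. When mevalonate was added to it, 1 of them rose, beside 5.31% of all genes. KDR, the main signalling receptor of endothelial cells (4.23, 4.15 and 4.15 on average with the combined treatment, simvastatin and DMSO), FLT4 and NRP2 did not pass the test in any comparison.

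Of the 3 measured ligand relatives, 0 changed with simvastatin (limma; 0 at an unadjusted p under 0.05). VEGFB differed by -0.09 ± 0.07, VEGFC by -0.11 ± 0.08 and PGF, placental growth factor, by -0.10 ± 0.08. PGF averaged 6.14 with simvastatin plus mevalonate, against 5.83 with simvastatin, and missed the threshold (0.30 ± 0.08, adjusted p = 0.0516 with limma). It passed without simvastatin plus mevalonate replicate 1, among genes above the median of all probesets, and with a trended spread.

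The peptide relatives of ADM gave no call. Of 4 measured genes (ADM5, CALCA, CALCB and IAPP), 0 changed in any comparison (limma; 0 at an unadjusted p under 0.05 in each), and all their group means lay between 3.39 and 5.11, below the median of all probesets. ADM2 was not analysed here.

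Among receptor genes of adrenomedullin, RAMP2 averaged 8.70 ± 0.11 with simvastatin plus mevalonate, 8.66 ± 0.16 with simvastatin and 8.40 ± 0.11 with DMSO (SD, n = 3 each). Neither treatment passed the test against DMSO (adjusted p = 0.329 and 0.130 with limma), although their arrays did not overlap with those of DMSO. CALCRL, the receptor that RAMP2 and RAMP3 accompany, lay at 3.45 to 3.56 on average in every group. Beside 13.4% of all genes called with simvastatin and 11.0% with added mevalonate, 1 of 6 receptor genes was called. This was ACKR3, a scavenger receptor for adrenomedullin and CXCL12. It rose by 0.37 ± 0.07 with simvastatin (adjusted p = 0.0116) and fell by 0.35 ± 0.07 when mevalonate was added (adjusted p = 0.0167), at levels of 4.15 to 4.68. The second call was lost without simvastatin replicate 1 or simvastatin plus mevalonate replicate 1 or 3.

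Of 7 measured genes for enzymes that process or degrade such peptides, 1 was called with simvastatin, beside 13.4% of all genes. PAM, which amidates adrenomedullin, differed by 0.06 ± 0.08 between simvastatin and DMSO (adjusted p = 0.715 with limma). FURIN, a protease that cleaves protein precursors, was the gene called, higher with simvastatin (0.24 ± 0.06, adjusted p = 0.0367) and lower with added mevalonate (-0.23 ± 0.06, adjusted p = 0.0455). Both calls were lost without any DMSO array, without simvastatin replicate 1 or 2, and without simvastatin plus mevalonate replicate 2 or 3. The call of the mevalonate step was also lost without replicate 1 of the combined treatment.

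Of 4 measured genes related to STC1, 1 rose and 2 fell with simvastatin, beside 13.4% of all genes called. STC2, which encodes stanniocalcin 2 and likewise inhibits PAPPA, moved against STC1. It read 7.43, 7.40 and 7.30 with simvastatin and 6.54, 6.61 and 6.37 with DMSO, and rose by 0.87 ± 0.07 (SE; limma, adjusted p = 8.45e-05). With mevalonate it read 6.83 on all 3 arrays, a fall of 0.55 ± 0.07 against simvastatin (adjusted p = 0.00104). Like STC1, STC2 with the combined treatment did not overlap with either other group, but it did not pass the test against DMSO (0.32 ± 0.07, adjusted p = 0.120). The 3 values of STC2 with the combined treatment were the same, so its spread within groups comes from the other groups. The SE of STC2, as of every gene, is moderated by limma.

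The genes that fell were IGFBP4 and IGFBP5. IGFBP4 read 7.76, 7.80 and 7.74 with simvastatin and 8.58, 8.53 and 8.53 with DMSO (-0.79 ± 0.05, adjusted p = 2.86e-05 with limma). It rose with added mevalonate, to 8.69, 8.77 and 8.63 (0.93 ± 0.05, adjusted p = 1.6e-05). IGFBP5 fell by 0.83 ± 0.06 (adjusted p = 9.25e-05) and rose by 0.80 ± 0.06 with mevalonate (adjusted p = 0.000155). PAPPA2, a protease related to PAPPA, differed by -0.10 ± 0.09 between simvastatin and DMSO (adjusted p = 0.535), and PAPPA itself was not analysed here. IGFBP3, a binding protein that PAPPA2 is known to cleave, was in another list and differed by -0.31 ± 0.14 (adjusted p = 0.230). The list's median log2 change was -0.44 with simvastatin against 0.01 over all genes.

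**Figure D3:**
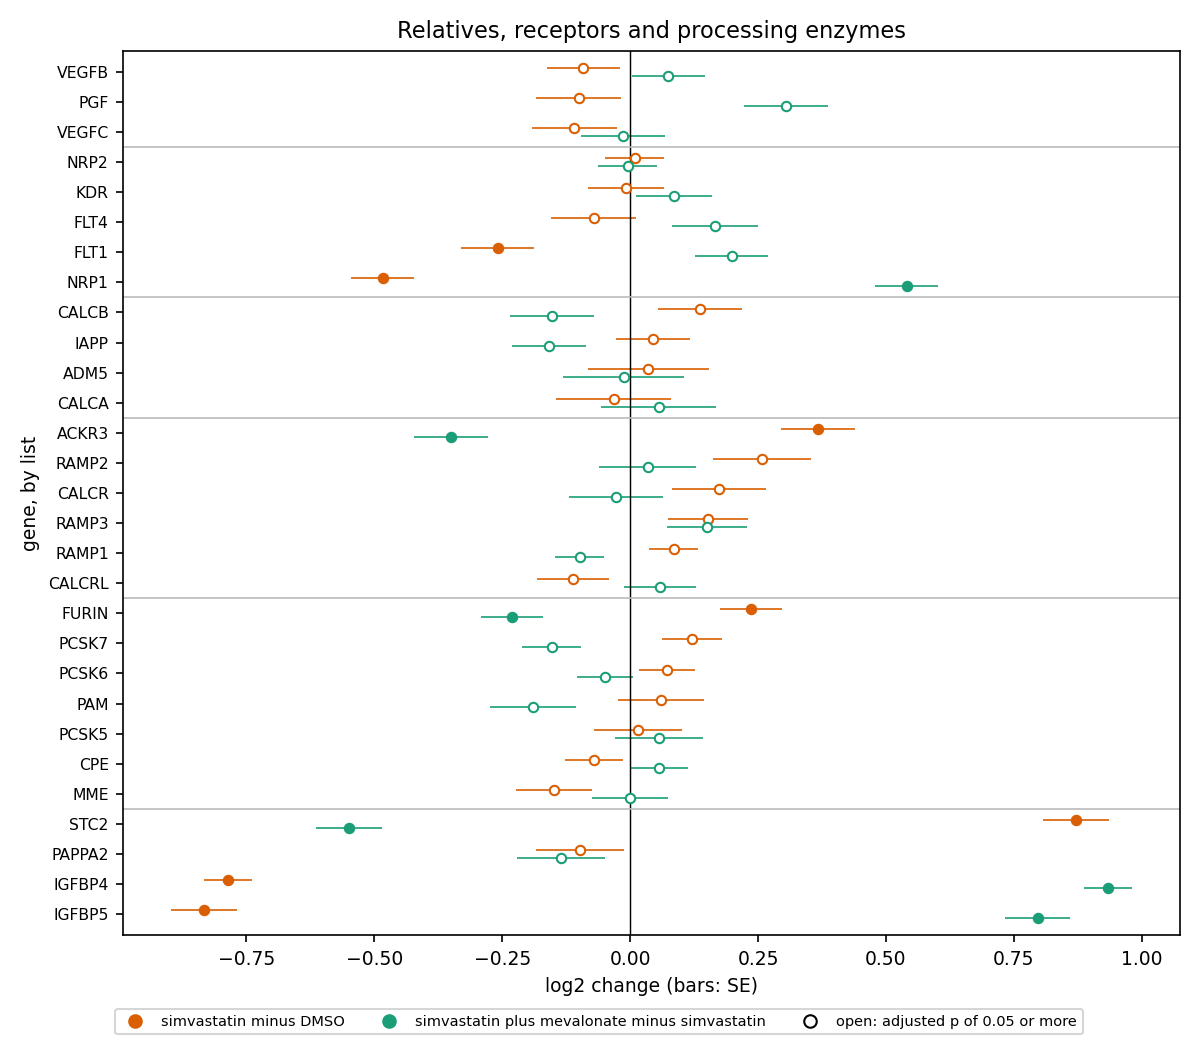
Log2 changes (bars are SE, 3 arrays per group) of the measured relatives, receptors and processing enzymes of the 3 genes, grouped by list. Orange marks simvastatin against DMSO and green the addition of mevalonate to simvastatin. Filled points passed adjusted p under 0.05. STC2 (0.87), IGFBP4 (-0.79) and IGFBP5 (-0.83) lie farthest from 0 in orange.

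Other hypoxia-linked genes did not move as a block. Over 4 lists of such genes without the 3 members, written with earlier results of these data known, 39 of 66 entries were measured. With simvastatin 7 rose and 4 fell, together 28.2% beside 13.4% of all genes, and the median log2 change was 0.04 beside 0.01 over all genes. When mevalonate was added to simvastatin, 5 rose and 8 fell (33.3% beside 11.0% of all genes). Without simvastatin replicate 1 or simvastatin plus mevalonate replicate 2 the 5 that rose became 1, and without any other single array but DMSO replicates 2 and 3 they became 2 or 3. The 8 that fell became 5 without simvastatin plus mevalonate replicate 2 or 3. Between simvastatin plus mevalonate and DMSO 0 of the 39 changed in the limma fit, with counts at an unadjusted p under 0.05 of 0 to 2 per list. Without simvastatin replicate 3, 1 gene, DDIT4, was called higher.

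Among the 7 measured genes of oxygen sensing and HIF subunits, EPAS1, which encodes HIF-2 alpha, fell with simvastatin by 0.60 ± 0.12 (adjusted p = 0.0134 with limma), averaging 5.26 ± 0.22 with simvastatin and 5.85 ± 0.18 with DMSO (SD, n = 3 each). It rose by 0.51 ± 0.12 when mevalonate was added (adjusted p = 0.0310), a call lost without DMSO replicate 1, simvastatin replicate 1 or 2, or any array of the combined treatment. EGLN3, an oxygen-sensing hydroxylase that is itself a HIF target, fell by 0.32 ± 0.05 with simvastatin (adjusted p = 0.00511) and rose by 0.23 ± 0.05 with mevalonate (adjusted p = 0.0245). The rise was lost without simvastatin replicate 1 or 3 or any array of the combined treatment. ARNT fell by 0.29 ± 0.06 with mevalonate (adjusted p = 0.0192), a call lost without simvastatin replicate 3 or simvastatin plus mevalonate replicate 2 or 3. HIF1A and VHL were not analysed here.

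Of 8 genes of glucose use, the hexokinase genes HK1 (0.36 ± 0.06, adjusted p = 0.00478 with limma) and HK2 (0.30 ± 0.05, adjusted p = 0.00341) rose with simvastatin. LDHA, lactate dehydrogenase A, was called lower (-0.27 ± 0.07, adjusted p = 0.0363). When arrays were left out 1 at a time, this call was kept only without DMSO replicate 2 or simvastatin plus mevalonate replicate 1. PGK1, a glycolytic enzyme gene that HIF is known to induce, named after its value was seen, differed by -0.01 ± 0.04 (adjusted p = 0.959). With mevalonate all 3 called genes were called in the other direction, with adjusted p from 0.0280 to 0.0423. Each of those calls was lost when any of at least 5 of the 9 arrays was left out in turn.

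Of 13 other HIF-linked genes 4 rose with simvastatin, beside 5.98% of all genes, and 2 to 3 did when 1 array was left out. DDIT4, an inhibitor of the growth kinase mTORC1 that is also induced by amino acid stress, led with 7.60, 7.49 and 7.31 against 6.33, 6.32 and 6.41 with DMSO (1.12 ± 0.07, adjusted p = 4.38e-05 with limma). MXI1, a repressor of the MAX network, rose by 0.31 ± 0.06 (adjusted p = 0.0118), lost with the mean over its probesets (0.104). BNIP3L, a mitophagy receptor (0.17 ± 0.05, adjusted p = 0.0483), and ERO1A, an oxidase of protein folding (0.17 ± 0.04, adjusted p = 0.0289), were called too. When arrays were left out 1 at a time, BNIP3L kept its call only without DMSO replicate 3. ERO1A lost its call without any DMSO array or simvastatin replicate 2 or 3. BNIP3, the close relative of BNIP3L, named after its value was seen, differed by 0.02 ± 0.04 (adjusted p = 0.857).

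With added mevalonate 5 of these 13 genes fell and 1 rose, beside 5.72% and 5.31% of all genes. DDIT4 fell by 0.60 ± 0.07 (adjusted p = 0.00139 with limma), MXI1 by 0.40 ± 0.06 and KDM3A, a histone demethylase, by 0.37 ± 0.06 (adjusted p = 0.00790). KDM3A differed by 0.04 ± 0.06 between simvastatin and DMSO (adjusted p = 0.786). The gene that rose was VLDLR, a lipoprotein receptor (0.19 ± 0.05, adjusted p = 0.0392), named after its value was seen. Its call was kept when DMSO replicate 2 or simvastatin plus mevalonate replicate 3 was left out, and lost when any of the others was.

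Of 11 other secreted hypoxia-linked factors, ANGPT2, which encodes angiopoietin 2, a vessel-destabilising ligand of the receptor TEK, fell with simvastatin. It read 6.17, 5.89 and 5.85 with simvastatin and 7.16, 7.04 and 7.08 with DMSO (-1.13 ± 0.09, adjusted p = 0.000118 with limma). With mevalonate it rose to 6.87, 6.94 and 6.73, by 0.88 ± 0.09 (adjusted p = 0.000519). TIMP1, a metalloproteinase inhibitor, rose by 0.38 ± 0.08 with simvastatin (adjusted p = 0.0169), lost without DMSO replicate 3 or simvastatin replicate 3. With mevalonate TIMP1 stayed at 7.93 on average, against 7.97 with simvastatin (-0.05 ± 0.08, adjusted p = 0.787). EDN1, EPO and ANGPTL4, known hypoxia-induced genes, differed by 0.02, -0.06 and 0.03 between simvastatin and DMSO and passed no test. They were named after their values were seen. EDN1 (4.10 to 4.58 over all arrays) lay below the median of all probesets (5.19), and EPO (5.39 to 5.74) lay just above it.

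**Figure D4:**
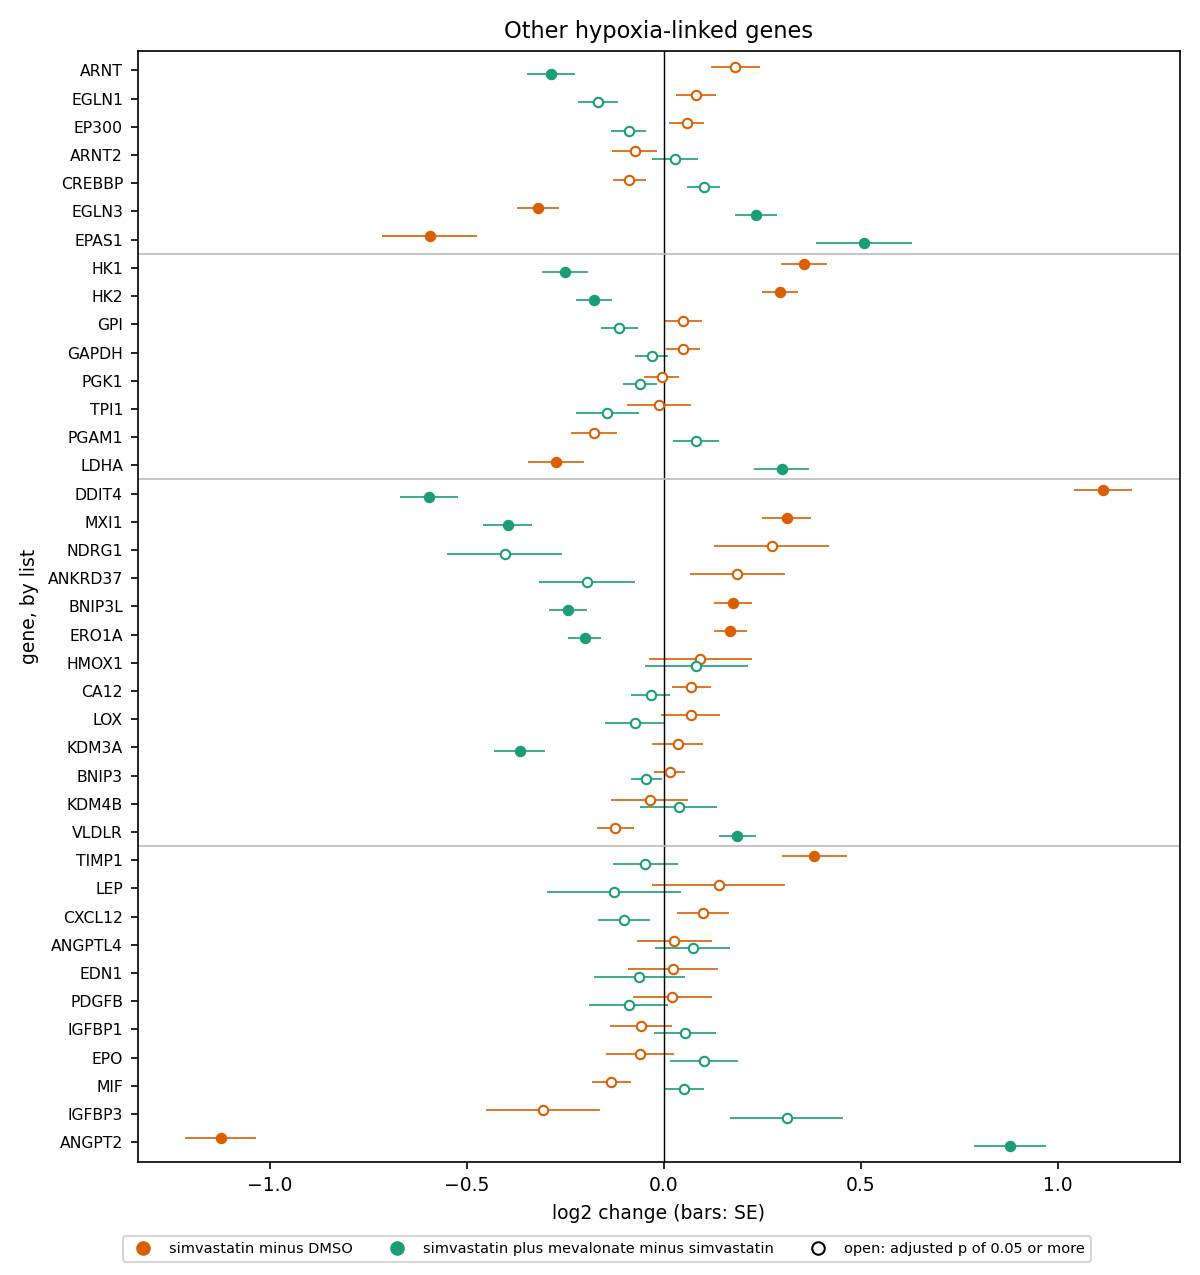
Log2 changes (bars are SE, 3 arrays per group) of the 39 measured hypoxia-linked genes other than VEGFA, ADM and STC1, grouped by list. Orange marks simvastatin against DMSO, green the addition of mevalonate to simvastatin, and filled points passed adjusted p under 0.05. DDIT4 (1.12) and ANGPT2 (-1.13) lie at the ends in orange, and most points are open.

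VEGFA is also known as a target of the stress factors ATF4 and XBP1, whose part in the VEGFA result was not tested. Of 12 measured regulators and markers of these responses, listed with earlier results of these data known, 9 rose with simvastatin and 0 fell. The shares of all genes were 5.98% and 7.38%. The median log2 change of the 12 was 0.53 against 0.01 over all genes. The largest were SESN2 (1.20 ± 0.14), an inhibitor of mTORC1, ASNS (1.19 ± 0.06), asparagine synthetase, TRIB3 (1.11 ± 0.12), a pseudokinase, and XBP1 itself (0.85 ± 0.06). When mevalonate was added 9 fell, beside 5.72% of all genes, with TRIB3 at -1.11 ± 0.12 and XBP1 at -0.75 ± 0.06. ATF4 mRNA differed by 0.15 ± 0.05 between simvastatin and DMSO (adjusted p = 0.0948 with limma). ASNS stayed 0.57 ± 0.06 above DMSO with the combined treatment (adjusted p = 0.0183), a call lost without any single array of those groups. Of 4 further regulators of VEGFA transcription or mRNA, 0 changed with simvastatin (limma; 1 at an unadjusted p under 0.05). SP1, which binds the VEGFA promoter, fell by 0.29 ± 0.05 with added mevalonate (adjusted p = 0.00450).

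Genes with the profile most like each of the 3 were found by the root mean square difference of log2 values over the 9 arrays, after each gene was centred on its own mean. This is a description over arrays that fall into 3 treatment groups. Nearest to VEGFA were S1PR2, a sphingosine-1-phosphate receptor gene (0.08), RNF217 (0.09), VCL, vinculin of focal adhesions (0.09), ARC, a neuronal activity gene (0.09), and KSR1, a scaffold of the RAF and MEK kinases (0.09). The same measure for VEGFA against a flat line was 0.34.

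Nearest to ADM were PAPSS2, which makes the sulfate donor PAPS (0.05), CACHD1 (0.06), ZNF681 (0.06), MAB21L2 (0.07) and ZNF618 (0.07), beside 0.30 for ADM against a flat line. Nearest to STC1 was HMMR, a spindle protein gene, at 0.10 beside 0.68 for STC1 against a flat line. HMMR averaged 8.89 with simvastatin plus mevalonate, 7.82 with simvastatin and 9.28 with DMSO, the same order as STC1. TM4SF4 (0.16), KIF20A, a mitotic kinesin gene (0.20), MAP2K6, a kinase upstream of p38 (0.20), and FGL1 (0.21) followed. After quantile normalization 4 of the 5 remained for each gene.

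**Figure D5:**
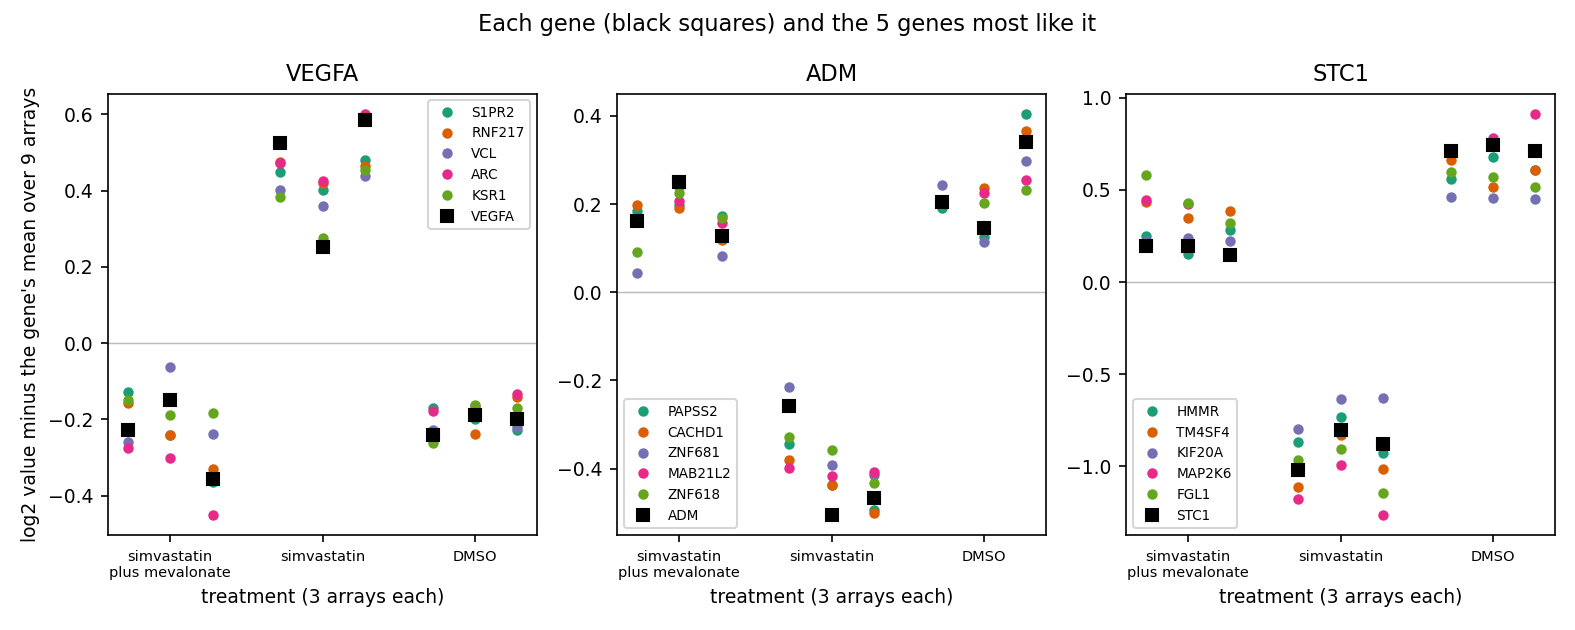
Log2 values on the 9 arrays, each gene centred on its own mean, for VEGFA, ADM and STC1 (black squares) and the 5 genes nearest to each (coloured points). The neighbours of VEGFA are high and those of ADM and STC1 low with simvastatin alone. The vertical scales differ between panels.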

How the data were processed

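Total RNA was measured on 9 arrays, 3 per treatment, with groups taken from the labels' treatment field. The deposited values are log2 expression values, 1 per probeset and array, made by the authors; the scale was read from the values (0.921 to 14.0, array medians 5.17 to 5.21). GCRMA and HOMER appear in the submitters' processing notes, with neither version nor role, and no source used here gives the build. Background correction and between-array normalization place dim probesets close together and hide a shift of all genes, and no detection calls were used. Precision is limited by the 3 arrays per group.

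Of 53617 probesets, 16098 (30.0%) had 1 gene symbol, 0 several and 37519 none in the platform annotation. All 16098 matched RefSeq (GRCh38.p14) by Entrez identifier. For 779 genes with several probesets the brightest was used, which left 14884 genes. R 4.3.3 and limma 3.58.1 (lmFit, eBayes) fitted 3 group means to all genes and arrays, with Benjamini-Hochberg adjustment over the 14884 genes and a threshold of 0.05. The procedure was tested on simulated data.

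The members, the lists (12 lists, 124 entries) and the markers were chosen with earlier results of these data known. Named genes are the 3 members, their measured relatives, up to 4 called genes with the largest change per other list and comparison, and the 5 genes nearest to each member. PAM, PGK1, BNIP3, EDN1, EPO, IGFBP3, ANGPTL4, ATF4, CD68, LUM, DCN and DBH were added after their values were seen. Symbols of the LOC, LINC, MIR, SNOR, SCARNA, RNU, RNA5 and OTTHUM kinds were left out of the nearest genes. Alternatives were the mean over probesets, quantile normalization, median centring, a filter on dim genes, a trended spread, fits of only the groups compared, a replicate block and leaving out each array.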

Additional observations from a re-analysis of the deposited data

How the results depend on the processing

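Between simvastatin and DMSO, where no test was made, VEGFA, ADM and STC1 kept their direction under every alternative. They were chosen for this direction and their groups did not overlap, so leaving out an array could not reverse it. That they kept it is therefore no support for these differences. Between simvastatin plus mevalonate and simvastatin they kept their direction and their calls under every alternative. Between simvastatin plus mevalonate and DMSO, VEGFA changed sign without simvastatin plus mevalonate replicate 3 (0.02) and ADM without DMSO replicate 3 (0.0045), and neither passed the test. The call of STC1 was lost at -0.55 on the log2 scale in a fit of only the groups compared (adjusted p = 0.0723) and -0.55 with the replicate block (0.0904). Leaving out 1 array at a time gave -0.55 to -0.53, with adjusted p from 0.0216 to 0.128. Same-numbered arrays showed no shared deviation across genes (r from -0.0806 to 0.0505). This check cannot decide whether same-numbered samples were handled together, since a shared effect may be too small to see. The block changed no other call of the 3 genes.

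The count of all genes changed between simvastatin plus mevalonate and DMSO was 11. It was 105 among the 10164 genes above the median of all probesets, 225 with a trended spread, 0 with only the groups compared (1671 at an unadjusted p under 0.05), 0 with the replicate block (1505 unadjusted), and 0 to 12 without 1 array (1230 to 1676 unadjusted). Genes that rose when mevalonate was added numbered 791, and 516 without simvastatin plus mevalonate replicate 1. With quantile normalization ARNT was called higher with simvastatin, EGLN1 fell with mevalonate, HK1 and VLDLR lost their mevalonate calls, and DDIT4 was called above DMSO with the combined treatment. Under alternatives added after seeing the data, the 4 hypoxia lists gave 5 to 8 higher and 2 to 6 lower with simvastatin, and 1 to 6 higher and 5 to 10 lower with added mevalonate. The causes were not tested.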

Other observations

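Of the 11 genes that changed between simvastatin plus mevalonate and DMSO, 10 were not members, and they are named here after their values were seen. HMGCS1, ACAT2 and MSMO1, enzymes of sterol synthesis, averaged 8.62, 9.40 and 9.91 with the combined treatment, against 8.01, 8.80 and 9.37 with DMSO. PSAT1, an enzyme of serine synthesis, averaged 11.4 with the combined treatment, against 10.9 with DMSO, and ASNS was described above. Of the 5 that were lower beside STC1, 4 were highest with simvastatin alone, unlike STC1. SYT11, a synaptotagmin gene, averaged 10.4 with the combined treatment, 11.5 with simvastatin and 10.8 with DMSO. TMOD1, an actin-capping protein gene, differed from DMSO by -0.33 with the combined treatment and by 0.49 with simvastatin. In the order above, DAAM1, a formin gene, averaged 6.62, 7.40 and 7.05, and the probeset at MIR548H3 averaged 4.77, 6.71 and 5.43. MEG3, an imprinted non-coding RNA gene, differed from DMSO by -0.71 with the combined treatment and by -0.22 with simvastatin. The number called in this comparison depends strongly on single arrays and on the model of the spread.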
